A study of Mus musculus with 10 samples.

Results

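The 10 transcripts described here encode hormones that the liver secretes, components of the receptors for the endocrine fibroblast growth factors, and members of the activin and bone morphogenetic protein (BMP) branches of the TGF-beta superfamily. They were chosen by name from the 39056 genes of the count table. They are the hormones Fgf21, Gdf15 and Lect2, the FGF receptor Fgfr4 and its co-receptor Klb, the activin subunits Inhba, Inhbc and Inhbe, the activin-binding protein Fst (follistatin) and the ligand Bmp7. All 10 were among the 15811 genes with enough counts to be tested.

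The study asked how loss of mixed-lineage kinase 3 (MLK3, encoded by Map3k11), a kinase upstream of JNK, alters gene expression in chemically induced liver cancer. The sources differ on the tissue of the treated samples, which is liver tumour by its tissue label but only liver in the protocol for RNA extraction. They are called tumours here after the label. There were 10 libraries, each from a male C57BL/6 mouse of 11 months. KO tumours (n = 3) and WT tumours (n = 3) came from MLK3-KO and wild-type mice injected at 2 weeks of age with the DNA-alkylating carcinogen DEN (5 µg per g body weight) and given, from 1 week later, the tumour promoter PB at 0.05% in drinking water. The 2 KO livers and the 2 WT livers came from mice of the same genotypes that drank regular water. All tumours therefore carry DEN and PB and no liver does, so that tumour formation and treatment cannot be told apart. The sources used here do not name the deleted part of Map3k11, so its 3' tags check nothing. They gave 10.0, 10.3 and 5.84 CPM (counts scaled to the library total) in KO tumours, 12.2, 9.54 and 14.3 in WT tumours, 5.38 and 5.81 in KO livers and 7.92 and 14.9 in WT livers.

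Total counts ran from 12408749 to 18081487 per library. The 10 hepatocyte markers summed to 42300 to 54300 CPM in KO tumours, 77700 to 101000 in WT tumours, 56100 to 58000 in KO livers and 50200 to 52000 in WT livers. WT tumours, in which Fgf21 and Bmp7 were highest, thus stood apart in this sum; 2 of the 10 markers (Alb and Apoa1) rose and 4 fell in them against WT liver, and the part of this in the results was not tested. A tumour marker sum (12 oncofetal and proliferation transcripts) was 3130, 31.3 and 640 CPM in KO tumours 1, 2 and 3, 1710 to 2250 CPM in WT tumours, 30.8 to 34.4 CPM in KO livers and 18.5 to 21.7 CPM in WT livers. KO tumour 2 thus stood at the level of liver, and values without it are given where they change a call, a sign or a size. Reads of weak transcripts came in clumps. Where the group mean of a gene lay between 10 and 20 counts, the share of genes without a count in at least 1 library was 47.1% in KO tumours, 66% in WT tumours, 56.6% in KO livers and 55.4% in WT livers. In bulk tissue, fewer cells of a type and less RNA per cell cannot be told apart.

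Hepatokines are proteins that hepatocytes release into blood to act on distant organs. FGF21, a hormone of fasting and cell stress, signals through FGF receptors joined to beta-klotho, and FGFR4 with beta-klotho receives the gut hormone FGF15 in mice, which represses bile acid synthesis. Activins are dimers of inhibin beta subunits that signal through SMAD2 and SMAD3, and the subunits beta C and beta E are made mainly by hepatocytes. Follistatin binds and neutralises activins. BMP7 signals through SMAD1 and SMAD5, whose direct targets include Id1.

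Promoter sequences are shown for the members whose stretch before the start held 1 of 2 motifs, because the stress targets and the beta-catenin targets measured in the same libraries are described beside them further on. Of the 10 members, 8 were matched to 9 RefSeq promoters on GRCm38.p6 (Gdf15 has 2), and the 250 bases before each start were searched on both strands. Capitals mark the core of the C/EBP-ATF response element (TGATGNAA, read here on the opposite strand as TTGCATCA) in Fgf21 and Inhbe, and the TCF/LEF core (ATCAAAG) in Lect2. The 2 motifs did not occur in the same promoter, so that no matches overlap.
Fgf21 (chr7:45615491-45615740, minus strand): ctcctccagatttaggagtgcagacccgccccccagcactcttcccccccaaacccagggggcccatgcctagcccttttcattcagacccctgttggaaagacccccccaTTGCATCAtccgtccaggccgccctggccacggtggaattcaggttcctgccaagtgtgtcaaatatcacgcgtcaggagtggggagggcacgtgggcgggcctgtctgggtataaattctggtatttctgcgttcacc
Inhbe (chr10:127351849-127352098, minus strand): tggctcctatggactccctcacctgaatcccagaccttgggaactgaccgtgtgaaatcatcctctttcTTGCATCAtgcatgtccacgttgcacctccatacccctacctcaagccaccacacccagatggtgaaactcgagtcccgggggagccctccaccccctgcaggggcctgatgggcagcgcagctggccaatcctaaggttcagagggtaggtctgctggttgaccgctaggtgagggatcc
Lect2 (chr13:56548539-56548788, minus strand): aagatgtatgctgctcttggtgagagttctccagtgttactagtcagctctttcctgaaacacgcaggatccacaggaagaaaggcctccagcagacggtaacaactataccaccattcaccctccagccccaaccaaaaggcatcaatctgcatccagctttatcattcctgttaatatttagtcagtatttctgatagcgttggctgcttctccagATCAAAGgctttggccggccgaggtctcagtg
The C/EBP-ATF core lay 139 bases upstream of the start of Fgf21 and 181 bases upstream of that of Inhbe, and was found in 2 of the 9 member promoters and in 3.45% of 32851 mouse promoters. The TCF/LEF core lay 32 bases upstream of Lect2 and was found in 1 of the 9 and in 3.21% of all. The RefSeq start of Inhbe lies inside the GENCODE span of the gene given further on. A motif match describes the letters of the window and is not evidence of binding.

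In WT tumours, edgeR called Fgf21 and Bmp7 higher than in WT liver, and it called no member lower. Lect2 and Inhbc lay lower in every WT tumour than in every WT liver, without a call in that fit. In KO tumours, Bmp7 was lower and Lect2 higher than in WT tumours. Levels are TMM-scaled CPM, with SDs taken over the libraries of a group, and fold changes are log2 values with standard errors (SE) and Benjamini-Hochberg adjusted p-values over all tested genes from edgeR's quasi-likelihood test. With an adjusted p under 0.05, 2 of 10 members were higher and 0 lower in WT tumours against WT liver, where 8.34% of all tested genes passed in either direction and 3.64% were higher. In KO tumours against WT tumours 1 member was higher and 1 lower, against 4.52% of all genes passing. Neither KO tumours against KO liver nor KO against WT liver had a member past the test in edgeR, with 0.0759% and 0.00632% of all genes passing. At an unadjusted p under 0.05 these 2 comparisons held 1 and 2 members, beside 1520 and 1151 of the 15811 tested genes. DESeq2 called 1 (Fgf21) and 2 (Fgf21 and Bmp7), beside 427 and 202 genes over all. At that unadjusted p, 2362 of all tested genes lay in KO against WT tumours and 2006 in the interaction. The difference between the tumour-to-liver changes of KO and WT mice (the interaction) passed for 1 member, Bmp7, against 1.59% of all genes. Without KO tumour 2, the members called were 3 higher in WT tumours against WT liver (Fst added), 1 higher in KO tumours against KO liver (Fgf21), 0 in KO against WT tumours and 1 in the interaction. Over all tested genes that fit called 1499, 202, 459 and 219 in the same order. With all libraries the numbers were 1318, 12, 715 and 251, so the calls over all genes shifted as well. Several of these comparisons share libraries and are not independent of each other.

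The median log2 fold change of the 10 members was 0.04 in WT tumours against WT liver, beside 0.09 over all tested genes, and -0.04 in KO against WT tumours, beside -0.03 over all. The members thus had no common direction. The libraries of WT tumours and WT liver did not overlap for 5 members (3 higher, 2 lower), as for 37.3% of all genes. Those of KO and WT tumours did not overlap for 4 (2 higher, 2 lower), as for 23.1% of all.

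**Figure D1:**
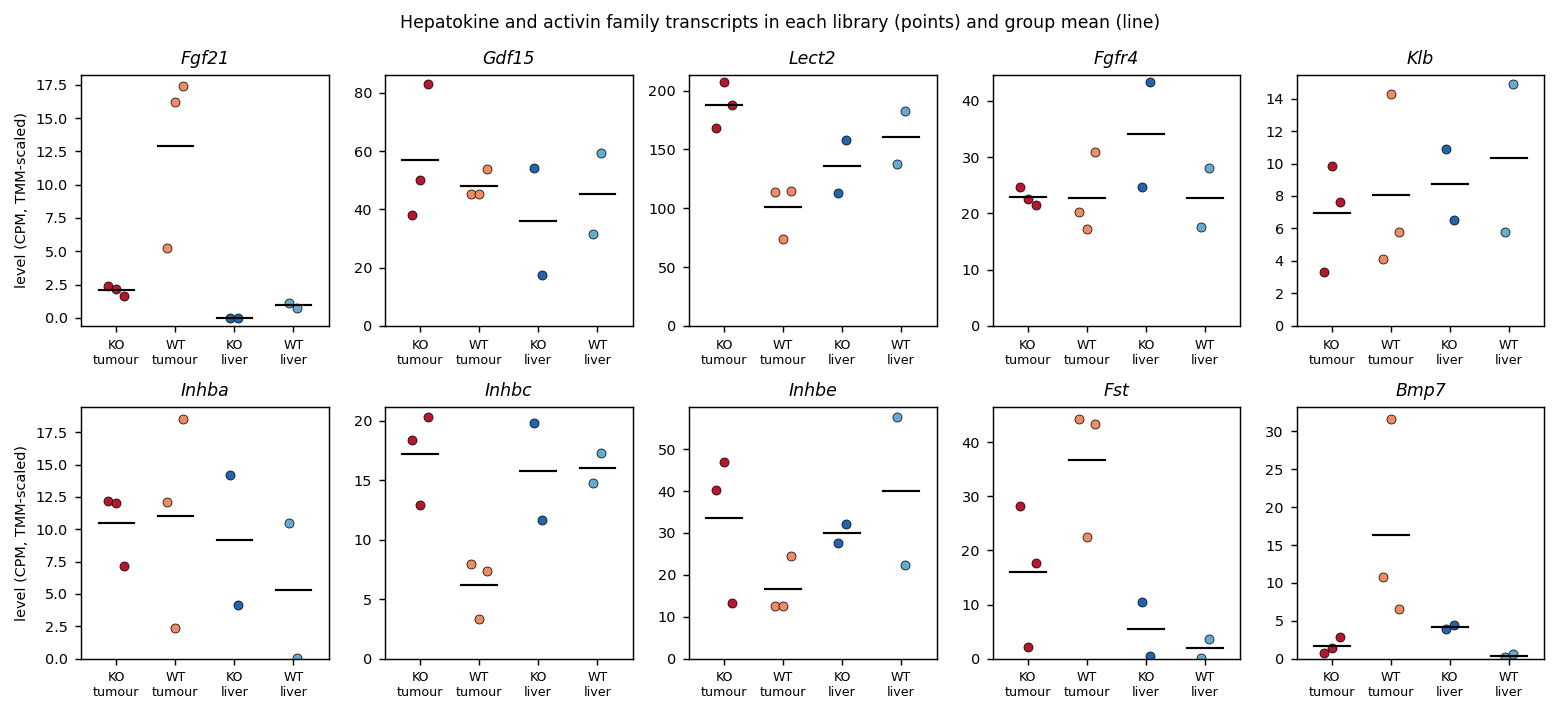
Level of each of the 10 transcripts (CPM, TMM-scaled; each panel has its own axis) in KO tumours, WT tumours, KO livers and WT livers; points are libraries and lines group means. Fgf21 and Bmp7 have their highest levels in WT tumours, Lect2 its highest in KO tumours, while the groups overlap for Gdf15, Fgfr4, Klb and Inhba.

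Fgf21 (ENSMUSG00000030827.5, chr7:45613886-45615490, minus strand, GRCm38) was low in liver and higher in tumours. It stood at 2.39, 2.16 and 1.66 CPM in the 3 KO tumours, 5.21, 16.2 and 17.4 CPM in the 3 WT tumours, and 1.13 and 0.757 CPM in the 2 WT livers. The 2 KO livers had no count. Every WT tumour lay above every other library, and every KO tumour lay above every liver. The order of the means was WT tumours (12.9 ± 6.72 CPM, n = 3), KO tumours (2.07 ± 0.374, n = 3), WT liver (0.944 ± 0.265, n = 2) and KO liver.

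In WT tumours Fgf21 rose over WT liver by a log2 fold change of 3.77 (SE 0.99, adjusted p = 0.0305). That call was lost when WT liver 1, WT liver 2, WT tumour 2 or WT tumour 3 was left out (adjusted p = 0.101, 0.148, 0.127 and 0.143), while the log2 fold change stayed between 3.47 and 4.13 in the 10 leave-one-out fits. KO against WT tumours gave -2.64 (SE 0.79, adjusted p = 0.0861; -2.67 with adjusted p = 0.24 without KO tumour 2), and DESeq2 called it (adjusted p = 0.00289). For the KO livers a floor of 3 counts per library was taken, a limit that covers counting error only. The mean of the KO tumours was 10.8 times the mean floor, and that of the WT livers 4.91 times. These ratios use group means, and single libraries can fall under them. Neither difference from the KO livers passed edgeR's test (adjusted p = 0.0788 and 0.358), and DESeq2 called both (adjusted p = 0.00111 and 0.02). Without KO tumour 2 the first of these passed edgeR's test as well (adjusted p = 0.0306). The interaction was not called (adjusted p = 0.325), and its fitted value rests on the KO livers without counts.

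Both receptor components stayed within the spread of the libraries. Fgfr4 (ENSMUSG00000005320.9, chr13:55152640-55168759, plus strand) gave 24.7, 22.6 and 21.5 CPM in KO tumours, 20.2, 17.3 and 31.0 in WT tumours, 24.7 and 43.4 in KO livers and 17.5 and 28.1 in WT livers. The KO livers had the highest mean (34.1 ± 13.2 CPM, n = 2), and the other group means lay at 22.8 or 22.9 CPM. Klb (ENSMUSG00000029195.10, chr5:65348314-65384007, plus strand), which encodes beta-klotho, gave 3.31, 9.84 and 7.64 CPM in KO tumours, 4.12, 14.3 and 5.77 in WT tumours, 10.9 and 6.52 in KO livers and 5.78 and 14.9 in WT livers. All 4 groups overlapped for Klb. In the 5 comparisons the adjusted p ran from 0.616 to 1 for Fgfr4 and from 0.844 to 1 for Klb.

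Of 22 tested genes of FGF ligands, receptors and the FGF15-FGFR4 bile acid axis, 3 were higher and 4 lower in WT tumours than in WT liver (median log2 fold change 0.19). The sterol hydroxylase Cyp8b1 fell (-5.39, SE 0.83, adjusted p = 0.000707), while the ERK phosphatase Dusp6 (1.71, SE 0.28, adjusted p = 0.00128) and the receptor Fgfr2 (2.33, SE 0.40, adjusted p = 0.00153) rose. In KO against WT tumours 4 were higher and 1 lower. Cyp7a1, the rate-limiting enzyme of bile acid synthesis, had 107, 54.0 and 17.7 CPM in KO tumours against 3.33, 1.67 and 3.40 CPM in WT tumours (4.40, SE 0.83, adjusted p = 0.00525), while the WT livers themselves had 8.29 and 154 CPM. Cyp8b1 (3.46, SE 0.75, adjusted p = 0.0125) and Nr0b2, the repressor SHP (2.16, SE 0.50, adjusted p = 0.0192), were also higher in KO tumours. Both calls were lost without KO tumour 2 (2.19 with adjusted p = 0.078 for Cyp8b1, 1.80 with adjusted p = 0.103 for Nr0b2). They were also lost without WT tumour 1 (adjusted p = 0.0514 and 0.0722). The Cyp8b1 call was lost with a replicate block too (0.0566). That of Nr0b2 was lost without KO tumour 3 (0.0722) and with the 2 groups fitted by themselves (0.056). Without KO tumour 2, 1 of the 22 was higher and 0 lower in KO against WT tumours. In WT tumours against WT liver 4 were then higher and 5 lower. None of the 22 passed edgeR's test in KO tumours against KO liver, in KO against WT liver or in the interaction, where 2, 4 and 7 had an unadjusted p under 0.05 and DESeq2 called 0, 0 and 2. Among 11 tested receptors of the member hormones, Fgfr2 alone passed, and only the WT tumours against WT liver showed it. The other 4 comparisons held 0 calls in edgeR and in DESeq2 and 1 to 3 genes at an unadjusted p under 0.05.

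Known inputs to Fgf21 and Gdf15 were measured as a list of 30 stress and PPARA genes. In WT tumours 5 were higher and 3 lower than in WT liver (median 0.77, beside 0.09 over all genes). Trib3, a pseudokinase induced by ATF4 and CHOP, had 17.1, 17.2 and 40.2 CPM in KO tumours, 124, 258 and 161 CPM in WT tumours, 12.9 and 9.28 CPM in KO livers and 15.0 and 4.67 CPM in WT livers. WT tumours stood apart from the other 3 groups, as they did for Fgf21. Other genes of the list were mixed in this. Atf3, Nupr1 and Psat1 also had every WT tumour above every other library. Asns, Chac1 and Ddit3 did not, with 9.32 to 16.5 CPM of Asns in WT tumours and 11.4 to 12.2 in KO livers. Trib3 rose in WT tumours over WT liver (4.21, SE 0.56, adjusted p = 0.000215) and was lower in KO than in WT tumours (-2.87, SE 0.44, adjusted p = 0.000978). Both calls held in every alternative fit. Psat1, a serine synthesis enzyme, rose in WT tumours (8.10, SE 1.79, adjusted p = 0.00973; 0.0574 without WT liver 2), and Acot1, a PPARA target, fell (-3.15, SE 0.53, adjusted p = 0.0014).

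In KO against WT tumours 1 of the 30 was higher and 3 lower (median -0.96, beside -0.03 over all genes). Besides Trib3, the carnitine transferase Cpt1a (-0.999, SE 0.21, adjusted p = 0.0107) and the transcription factor Atf5 (-0.93, SE 0.20, adjusted p = 0.0125) were lower, the Atf5 call being lost without WT tumour 3 or KO tumour 3 (adjusted p = 0.0565 and 0.0695). Trib3 alone passed in the interaction. It lost that call without KO tumour 2 (adjusted p = 0.0744) and without several other single libraries. None passed edgeR's test in KO tumours against KO liver or in KO against WT liver, with 10 and 4 genes at an unadjusted p under 0.05 and 3 called by DESeq2 in each. Without KO tumour 2, edgeR called 3 of the 30 higher in KO tumours against KO liver, 8 higher and 4 lower in WT tumours against WT liver, and 0 higher and 3 lower in KO against WT tumours.

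**Figure D2:**
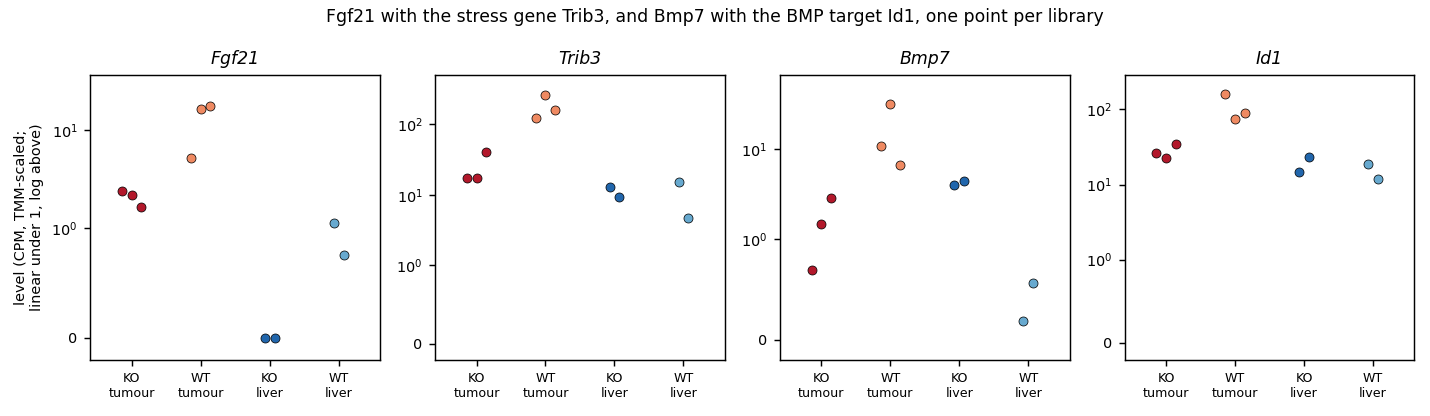
Fgf21 beside the stress gene Trib3, and Bmp7 beside the BMP target Id1 (CPM, TMM-scaled; axis linear under 1 and logarithmic above), one point per library in KO tumours, WT tumours, KO livers and WT livers. The WT tumours hold the 3 highest points in each panel, and the KO livers have no Fgf21 count.

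Gdf15 (ENSMUSG00000038508.7, chr8:70629393-70632456, minus strand), a stress hormone that acts on the hindbrain receptor GFRAL, did not follow Fgf21. It stood at 38.2, 50.1 and 83 CPM in KO tumours, 45.2, 45.3 and 53.9 in WT tumours, 54.1 and 17.6 in KO livers and 31.5 and 59.3 in WT livers. The groups overlapped in every comparison. The means of 57.1 ± 23.2 (KO tumours, n = 3), 48.1 ± 4.99 (WT tumours, n = 3), 35.8 ± 25.8 (the 2 KO livers) and 45.4 ± 19.7 CPM (the 2 WT livers) did not differ beyond their spread, with adjusted p-values from 0.623 to 0.955. Gfral had no count in the 10 libraries.

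Lect2 (ENSMUSG00000021539.8, chr13:56542464-56548502, minus strand) encodes leukocyte cell-derived chemotaxin, a hepatocyte protein that is a known target of beta-catenin. Its level was 168, 207 and 188 CPM in KO tumours, 114, 74.1 and 115 in WT tumours, 113 and 158 in KO livers and 138 and 183 in WT livers. All KO tumours lay above all WT tumours, while the livers of the 2 genotypes overlapped. By mean, the order was KO tumours (188 ± 19.5 CPM, n = 3), WT liver (161 ± 32.5, n = 2), KO liver (135 ± 31.4, n = 2) and WT tumours (101 ± 23.3, n = 3), and neighbours in that order overlapped.

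KO tumours exceeded WT tumours in Lect2 by a log2 fold change of 0.89 (SE 0.23, adjusted p = 0.0377). The difference kept its sign in every alternative fit but lost its call without WT tumour 1, 2 or 3 (adjusted p = 0.0557, 0.13 and 0.0517) and without KO tumour 2 or 3 (0.121 and 0.111). Against their own livers, WT tumours stood at -0.67 (SE 0.25, adjusted p = 0.13) and KO tumours at 0.47 (SE 0.26, adjusted p = 0.574), and the interaction of 1.14 (SE 0.36) had an adjusted p of 0.17. KO against WT liver gave -0.25 (SE 0.28, adjusted p = 0.926).

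Other beta-catenin targets of liver had larger differences at the median than Lect2. Of 19, 11 fell and 0 rose in WT tumours against WT liver (median -3.13), and 9 were higher and 0 lower in KO than in WT tumours (median 2.54). Glutamine synthetase (Glul) had 783, 932 and 780 CPM in KO tumours, 119, 55.5 and 102 in WT tumours, 907 and 1090 in KO livers and 1160 and 1500 in WT livers. Its log2 fold change was -3.85 (SE 0.29, adjusted p = 9.44e-07) in WT tumours against WT liver and 3.18 in KO against WT tumours. Ornithine aminotransferase (Oat) and Cyp2e1 showed the same 2 differences (-4.91 and -4.19, then 4.05 and 4.04). In KO tumours against KO liver and in KO against WT liver none of the 19 passed edgeR's test, 2 and 1 had an unadjusted p under 0.05, and DESeq2 called 1 and 0. The interaction was positive and past the test for 6 of the 19. Without KO tumour 2, edgeR called 9 of the 19 lower in WT tumours against WT liver and 1 lower in KO tumours against KO liver. It then called 8 higher in KO against WT tumours and 5 higher in the interaction.

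**Figure D3:**
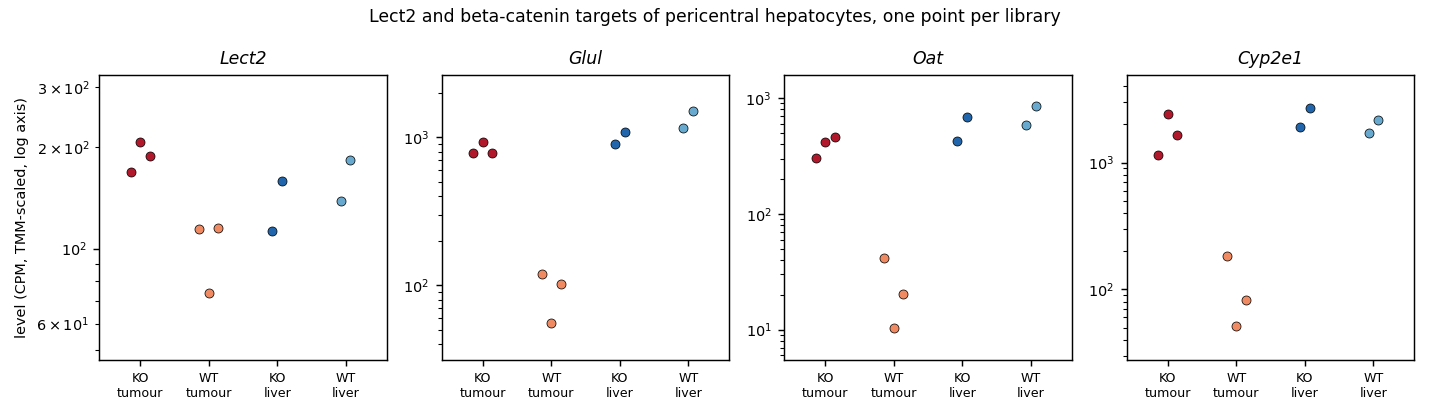
Lect2 beside 3 beta-catenin targets of pericentral hepatocytes (CPM, TMM-scaled, logarithmic axes), one point per library in KO tumours, WT tumours, KO livers and WT livers. WT tumours hold the 3 lowest points for Glul, Oat and Cyp2e1. For Lect2 they lie under the KO tumours but overlap the KO livers.

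The activin subunits of hepatocytes, Inhbc (ENSMUSG00000025405.9, chr10:127356322-127370431) and Inhbe (ENSMUSG00000047492.5, chr10:127348857-127354411), are neighbours on the minus strand, 1910 bases apart. Inhbc stood at 18.4, 12.9 and 20.3 CPM in KO tumours, 7.97, 3.35 and 7.38 in WT tumours, 19.8 and 11.7 in KO livers and 14.8 and 17.3 in WT livers. The 3 WT tumours were the 3 lowest libraries, and the other 3 groups overlapped. The log2 fold change was 1.46 in KO against WT tumours (SE 0.43, adjusted p = 0.0752) and -1.36 in WT tumours against WT liver (SE 0.47, adjusted p = 0.0918). Neither passed edgeR's test in the main fit, and DESeq2 called both (adjusted p = 0.0202 and 0.0452). The first passed edgeR's test with every gene that had a count (adjusted p = 0.0439) and with a filter of 10 CPM on the mean (0.0495). It did not pass in the other alternative edgeR fits. KO tumours against KO liver gave 0.13 (SE 0.47, adjusted p = 0.97) and KO against WT liver -0.03 (SE 0.52, adjusted p = 1), and both changed sign when single libraries were left out. The interaction was 1.49 (SE 0.67, adjusted p = 0.376).

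Inhbe stood at 40.2, 46.8 and 13.4 CPM in KO tumours, 12.5, 12.5 and 24.6 in WT tumours, 27.7 and 32.1 in KO livers and 57.7 and 22.4 in WT livers. Its WT tumours were low in 2 libraries only, and KO tumour 3 lay among them. KO against WT tumours gave 1.02 (SE 0.45, adjusted p = 0.3), WT tumours against WT liver -1.28 (SE 0.49, adjusted p = 0.14), KO tumours against KO liver 0.16 (SE 0.50, adjusted p = 0.962), KO against WT liver -0.42 (SE 0.55, adjusted p = 0.942) and the interaction 1.44 (SE 0.71, adjusted p = 0.426). The tumour-to-liver difference in WT mice rested on WT liver 1, without which it was -0.44 (adjusted p = 0.736). It passed without WT liver 2 (-1.81, adjusted p = 0.0486) and with every gene that had a count (adjusted p = 0.00498). KO against WT tumours passed only in edgeR's fit with every gene that had a count (adjusted p = 0.0321). Without KO tumour 2, KO against WT tumours gave 0.70 (adjusted p = 0.682) and KO tumours against KO liver turned to -0.16 (adjusted p = 0.978). WT tumours 1, 2 and 3 had 5.21, 16.2 and 17.4 CPM of Fgf21 beside these 12.5, 12.5 and 24.6 CPM of Inhbe. A part of the C/EBP-ATF core, found in both promoters, in these levels was not tested.

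Inhba (ENSMUSG00000041324.13, chr13:16011851-16031621, plus strand), the subunit of activin A, gave 12.2, 12 and 7.14 CPM in KO tumours, 12.1, 2.40 and 18.5 in WT tumours, 14.2 and 4.18 in KO livers and 10.5 and 0.0631 in WT livers. The 2 WT livers had 167 counts and 1 count. Among 2107 genes with a mean of 50 to 120 counts in WT liver, the median ratio between the 2 libraries was 1.9, and 7.59% differed more than 10-fold. All groups overlapped, and the adjusted p ran from 0.656 to 0.992 over the 5 comparisons. Without WT liver 1, the difference between WT tumours and WT liver would pass (adjusted p = 0.0109), resting on a single count in the other library.

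Fst (ENSMUSG00000021765.7, chr13:114452290-114458951, minus strand), the activin antagonist, had 28.1, 2.09 and 17.7 CPM in KO tumours, 44.2, 22.5 and 43.3 in WT tumours, 10.5 and 0.425 in KO livers and 0.189 and 3.72 in WT livers. All WT tumours lay above all livers, and among the KO tumours replicate 2 lay within the range of liver. The means were 36.7 ± 12.3 CPM in WT tumours (n = 3), 16 ± 13.1 in KO tumours (n = 3), 5.45 ± 7.1 in the 2 KO livers and 1.95 ± 2.5 in the 2 WT livers. The log2 fold change of 4.23 in WT tumours against WT liver missed the threshold (SE 1.28, adjusted p = 0.0561). It passed in DESeq2 (adjusted p = 0.0334), when the 2 groups were fitted by themselves (adjusted p = 0.0219), with every gene that had a count (adjusted p = 2.95e-12) and without KO liver 1, KO liver 2 or KO tumour 2 (adjusted p = 0.0134, 0.0126 and 0.0305). The WT livers had 3 and 59 counts of Fst, and the size rests on them: it was 3.30 (adjusted p = 0.198) without WT liver 1 and 7.54 (adjusted p = 0.0239) without WT liver 2. KO tumours against KO liver gave 1.54 (SE 1.11, adjusted p = 0.662), KO against WT tumours -1.20 (SE 0.94, adjusted p = 0.657), KO against WT liver 1.49 (SE 1.22, adjusted p = 0.838) and the interaction -2.69 (SE 1.55, adjusted p = 0.514). The last 2 changed sign without KO liver 1. Without KO tumour 2, KO tumours against KO liver gave 2.06 (adjusted p = 0.486) and KO against WT tumours -0.68 (adjusted p = 0.927).

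Of 21 tested activin, TGF-beta and follistatin genes beside these members, 3 rose and 0 fell in WT tumours against WT liver (median 0.79). Tgfbr2, the type II TGF-beta receptor, rose by 2.05 (SE 0.43, adjusted p = 0.00675; 1.45 with adjusted p = 0.0503 without WT liver 1, and 3.09 without WT liver 2). Inhbb, the beta B subunit, had 9.09, 2.72 and 7.72 CPM in KO tumours and 11.6, 3.79 and 7.06 CPM in WT tumours. It had no count in the KO livers and 2 counts and 0 counts in the WT livers. Inhbb passed in WT tumours (adjusted p = 0.0101; 0.0572 without WT liver 2) and not in KO tumours (adjusted p = 0.0788), although the 2 sets of tumours overlapped. In the other 4 comparisons none of the 21 passed edgeR's test, with 3 genes at an unadjusted p under 0.05 in KO tumours against KO liver, 2 in KO against WT liver, 7 in KO against WT tumours and 5 in the interaction. DESeq2 called 2 of them in KO tumours against KO liver and 0 in the others. Without KO tumour 2, edgeR called 1 of 20 tested genes of the list higher in KO tumours against KO liver.

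Bmp7 (ENSMUSG00000008999.7, chr2:172868012-172940321, minus strand) was highest in WT tumours. It stood at 0.694, 1.47 and 2.88 CPM in KO tumours, 10.8, 31.6 and 6.61 in WT tumours, 3.95 and 4.39 in KO livers and 0.189 and 0.568 in WT livers. The means ran from WT tumours (16.3 ± 13.4 CPM, n = 3) over KO liver (4.17 ± 0.314, n = 2) and KO tumours (1.68 ± 1.11, n = 3) to WT liver (0.378 ± 0.268, n = 2). The WT livers had 3 and 9 counts, so that small numbers of reads carry that level.

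Bmp7 rose in WT tumours over WT liver by a log2 fold change of 5.40 (SE 1.09, adjusted p = 0.00537), which no longer passed without WT tumour 2 (4.48, adjusted p = 0.0582) and reached 6.37 without WT liver 2. It was lower in KO than in WT tumours (-3.27, SE 0.81, adjusted p = 0.0294), a call that was lost without WT tumour 1 or 2 (adjusted p = 0.052 and 0.337) or KO tumour 1 or 2 (0.1 and 0.127), with a value of -2.34 without WT tumour 2. In liver the KO libraries were the higher ones, by 3.44 (SE 1.04), which edgeR did not call (adjusted p = 0.49) and DESeq2 did (adjusted p = 0.0417). KO tumours against KO liver gave -1.30 (SE 0.83, adjusted p = 0.618). The tumour-to-liver change thus differed between the genotypes by -6.71 (SE 1.33, adjusted p = 0.0157), the one interaction past the test among the 10 members. It stayed called without KO tumour 2 (-6.62, adjusted p = 0.0362) and lost its call without WT liver 1 (-6.12, adjusted p = 0.0576) or WT tumour 2 (-5.78, adjusted p = 0.12).

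Markers of other cell types differed between the groups as well. The 8 markers of cholangiocytes, the epithelial cells of bile ducts, summed to 288, 59.9 and 176 CPM in KO tumours, 507, 457 and 272 in WT tumours, 69.6 and 83.9 in KO livers and 127 and 98.1 in WT livers. WT tumours 1 and 2 had the highest sums, and WT tumour 3 lay under KO tumour 1. Of the 8, Tspan8 and Spp1 rose in WT tumours against WT liver (6.53 and 3.33, adjusted p = 0.00999 and 0.0237), while the defining keratin Krt19 averaged 0.522 CPM in WT tumours and 0.694 CPM in WT liver and Cftr had no count in KO tumours. The 10 macrophage and Kupffer cell markers summed to 344 to 600 CPM in KO tumours, 341 to 553 in WT tumours, 316 to 477 in KO livers and 297 to 303 in WT livers. The 6 neutrophil markers summed to 17.4 to 200 CPM in KO tumours, 55.1 to 216 in WT tumours, 8.75 to 11.5 in KO livers and 23.9 to 24.3 in WT livers, and the 5 red blood cell markers to 3350 to 4680, 2440 to 4790, 2510 to 2970 and 1880 to 2030 CPM in the same order. In these 4 sums every WT tumour lay above every WT liver, as for Fgf21, Fst and Bmp7, while the KO and WT tumours overlapped. The part of these cells in the levels of the members was not tested. Sums of the 12 stellate markers (304 to 528 CPM in KO tumours, 277 to 667 in WT tumours, 319 to 389 in KO livers, 414 to 449 in WT livers) and of the 9 endothelial markers (313 to 362, 324 to 431, 314 to 366 and 296 to 351 CPM in the same order) overlapped between tumours and livers. The pancreatic enzymes Prss1 and Amy2a5 had no count in the 10 libraries.

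Among 26 tested BMP ligands, receptors, antagonists and targets, 1 rose and 2 fell in WT tumours against WT liver (median -0.28). The target Id1 had 25.9, 22.9 and 34.5 CPM in KO tumours, 160, 75.4 and 90.3 in WT tumours, 14.6 and 23.6 in KO livers and 19.0 and 11.7 in WT livers. The WT tumours stood above all others, and Id1 rose in them by 2.83 over WT liver (SE 0.40, adjusted p = 0.000319). It was lower in KO than in WT tumours by a log2 fold change of -1.97 (SE 0.33, adjusted p = 0.00188), the one call of the 26 there, and both calls held in every alternative fit. Hepcidin (Hamp), which BMP6 induces in hepatocytes, moved the other way in WT tumours (-1.74, SE 0.45, adjusted p = 0.0239; 0.102 without WT liver 1, 0.0858 without WT tumour 2 and 0.0702 without WT tumour 3), as did its inhibitor Tmprss6 (-0.91, SE 0.25, adjusted p = 0.0319; 0.22 without WT liver 2, 0.101 without WT tumour 1 and 0.075 without WT tumour 3). None of the 26 passed edgeR's test in KO tumours against KO liver or in KO against WT liver, where 1 and 2 had an unadjusted p under 0.05 and DESeq2 called 0 and 1. Id3 and Smad6, of the same list, did not follow Id1, and edgeR called neither. Id3 had 96.2 to 196 CPM in KO tumours and 81.8 to 161 in WT tumours. It had 140 to 227 CPM in KO livers and 218 to 229 in WT livers. Smad6 had 7.5 to 11.3 CPM in KO tumours and 0.321 to 4.01 in WT tumours. It had 5.09 to 5.67 CPM in KO livers and 4.54 to 5.28 in WT livers. The KO livers, higher than the WT livers in Bmp7, overlapped them in Id1.

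**Figure D4:**
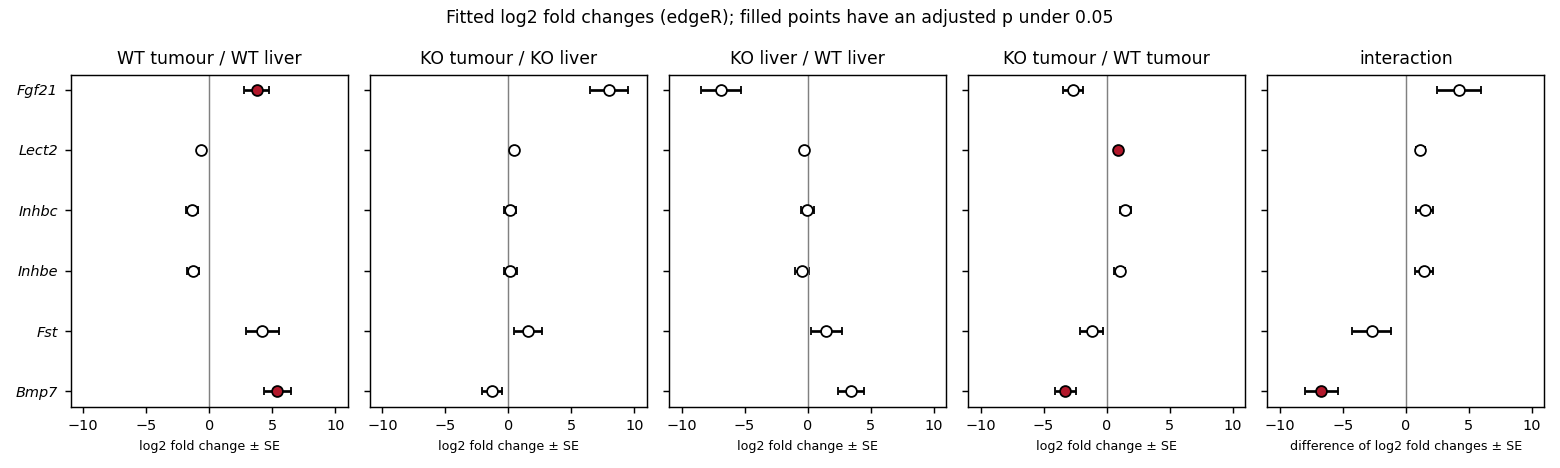
Fitted log2 fold changes (edgeR, bars show the SE) of 6 members in the 4 comparisons, and in the rightmost panel the difference between the tumour-to-liver changes of KO and WT mice; filled points have an adjusted p under 0.05. The filled points are Fgf21 (3.77) and Bmp7 (5.40) in WT tumours against WT liver, Lect2 (0.89) and Bmp7 (-3.27) in KO against WT tumours and Bmp7 (-6.71) in the interaction; the points for Fgf21 that involve KO liver are fits to a group without counts and give no size.

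Other hepatokines were set beside the members as a list of 29 tested genes, of which 6 were higher and 6 lower in WT tumours than in WT liver. The growth hormone target Igf1 fell (-2.61, SE 0.26, adjusted p = 1.84e-05), while fetuin A (Ahsg; 1.78, SE 0.26, adjusted p = 0.000373) and the apolipoprotein Apom (1.69, SE 0.23, adjusted p = 0.000261) rose. In KO against WT tumours 3 were higher and 3 lower, and these 3 genes were all called with the opposite sign, Igf1 by 2.48 (SE 0.25, adjusted p = 2.16e-05), Ahsg by -1.64 (SE 0.22, adjusted p = 0.000278) and Apom by -1.30 (SE 0.20, adjusted p = 0.000871). The 2 comparisons share the WT tumours. Leap2, an antagonist of the ghrelin receptor, was the one hepatokine past the test in KO tumours against KO liver (3.04, SE 0.46, adjusted p = 0.0207). That call was lost without KO liver 1 or 2 (adjusted p = 0.0523 and 0.0927) or KO tumour 1 or 3 (0.079 and 0.103), and 3 were higher there without KO tumour 2. None passed edgeR's test in KO against WT liver, where 5 had an unadjusted p under 0.05 and DESeq2 called 2, both lower. Without KO tumour 2, 6 of the 29 were higher and 8 lower in WT tumours against WT liver. In KO against WT tumours 3 were then higher and 4 lower.

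Transcripts with the most similar profile over the 10 libraries were sought among 8142 genes, with Pearson's r of log2(CPM + 1), given as a description because the libraries share groups and scaling. Fgf21 was closest to Nqo1, Enpp2 and Wdfy1 (r = 0.95 each), Bmp7 to Igfbp2 (0.96), Ugp2 (0.95) and Ak4 (0.95), and Fst to Guca1a (0.96), H2-Aa (0.96) and H2-Ab1 (0.95). Lect2 was closest to Nup88 (0.99), the mitochondrial mt-Nd1 (0.94) and Vipr1 (0.93), and Inhbc to Gdf2 (0.97), the liver ligand BMP9, then to the retinoic acid hydroxylase Cyp26a1 (0.96) and Ilkap (0.94). Inhbe was closest to Rexo2, Lims2 and Apoo (0.92, 0.92 and 0.90), Gdf15 to Ednrb, Nr2c2 and Unk (0.90, 0.90 and 0.89) and Fgfr4 to Ubp1, Arvcf and Neu1 (0.91, 0.90 and 0.89). Inhba (Golga5 0.87, Nt5c 0.85, Cdk2 0.84) and Klb (Mipep 0.87, Selenbp1 0.86, Sash1 0.86) had no partner above 0.87. Between members the highest values were 0.76 for Lect2 with Inhbc, 0.66 for Fgf21 with Fst and 0.61 for Fgf21 with Bmp7.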

How the data were processed

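RNA of 10 livers or liver tumours was measured by strand-specific QuantSeq 3' tag sequencing (Lexogen) from 50 ng of total RNA, per the labels' protocols. The authors deposited 1 table of raw counts per gene; BWA, featureCounts and the mm10 build are named in the submitters' processing notes. Tags near the 3' end depend little on transcript length, and molecular identifiers are not mentioned, so limits from counts cover counting error only. The design text calls replicates biological.

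The fit used edgeR 4.0.16 (R 4.3.3): filterByExpr (15811 of 39056 genes), TMM scaling and 1 quasi-likelihood fit of the 4 groups over all 10 libraries. Calls have a Benjamini-Hochberg adjusted p under 0.05. DESeq2 1.42.0 was an alternative, beside other filters, scalings, a replicate block and leaving out each library. The code was tested on simulated data.

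The members, lists and tests were chosen with earlier results of these data known. All 10 members are named. From each list and comparison, up to 3 called genes with the smallest p are named, and 3 transcripts of closest profile per member. One gene that this rule names is not reported here. Positions are from GENCODE M21 on GRCm38, promoters from RefSeq.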

Additional observations from a re-analysis of the deposited data

Results flagged for a closer look

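For 9 of the genes named, the tumour-to-liver change differed between KO and WT mice by a test of the difference itself (the edgeR interaction, adjusted over all tested genes, given as the log2 change in KO mice minus that in WT mice). Bmp7 was the one member of the set, at -6.71 (adjusted p = 0.0157): its mean level in KO tumours was below that in KO liver, and in WT tumours above that in WT liver, with 2 KO and 2 WT livers and WT liver counts of only 3 and 9. Among BMP targets Id1 differed by -2.29 (adjusted p = 0.0334) and among stress genes Trib3 by -3.05 (adjusted p = 0.0334). Both calls were lost without KO tumour 2 (adjusted p = 0.0755 and 0.0744). The Id1 call was also lost without WT tumour 1 (adjusted p = 0.09), WT tumour 3, KO tumour 1 or 3, WT liver 2 or KO liver 2. Trib3 lost its call as well without WT tumour 2 (adjusted p = 0.0958), WT tumour 3, KO tumour 1, WT liver 2 or KO liver 1. Among other hepatokines the values were 4.27 for Leap2, 2.34 for Igf1 and -1.75 for Ahsg (adjusted p = 0.00143, 0.00381 and 0.0147), and Ahsg missed the threshold without WT liver 1 or KO liver 2 (adjusted p = 0.0664 and 0.0577). The beta-catenin targets Glul, Oat and Cyp2e1 differed by 3.59, 4.41 and 3.78.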

How the results depend on the processing

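Fold changes were recomputed for Fgf21, Bmp7, Lect2, Fst, Inhbc and Inhbe, for Inhba in WT tumours against WT liver, and for the list genes named as called. Among these, 1011 kept their direction and their side of the threshold, 64 lost a call, 27 gained one and 8 changed sign. The 1011 include values that were not called in the main fit either. Gdf15, Fgfr4 and Klb are not in this tally. Genes called numbered 1318 in WT tumours against WT liver (DESeq2 2384). In KO tumours against KO liver they numbered 12 (386 with every gene that had a count, 1 under a stricter filter of 10 CPM on the mean, 0 with the 2 groups fitted by themselves, 427 by DESeq2, 3 to 202 when each library was left out). KO against WT liver had 1 (in the same order 111, 0, 0, 202 and 0 to 9). KO against WT tumours had 715 (1181 with every gene, 1220 by DESeq2, 459 to 816 with a library left out), and the interaction 251 (635 with every gene, 727 by DESeq2). The stricter filter removed Fgf21, Bmp7, Inhba and Klb before any test, so its counts of members do not show a failed retest.

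Members called higher in WT tumours against WT liver were 2, and 0 under the stricter filter, 1 with the replicate block and 0 to 3 with a library left out. Members called lower there were 0, and 1 with every gene, 1 by DESeq2 and 0 to 1 with a library left out. In KO tumours against KO liver 0 were higher, and 1 with every gene, 1 by DESeq2 and 0 to 1 with a library left out; in KO against WT liver DESeq2 called 1 higher and 1 lower. In KO against WT tumours 1 was higher (3 with every gene, 2 under the stricter filter, 0 with the replicate block, 2 by DESeq2, 0 to 1 with a library left out) and 1 lower (0 under the stricter filter, 0 with the replicate block, 2 with the 2 groups fitted by themselves, 2 by DESeq2, 0 to 2 with a library left out). In the interaction 1 was lower (2 with every gene, 0 under the stricter filter, 0 to 1 with a library left out). The cause of these changes was not tested.

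Deviations of same-numbered libraries correlated at -0.0093 to 0.0407 (median 0.0104), and those of libraries with different numbers at -0.0407 to 0.0205 (median -0.00815). The 2 ranges overlapped and showed no clear pairing by replicate number. In groups of 2 libraries the deviations mirror each other, so these values cannot exclude a pairing. With the replicate block, Fgf21 in WT tumours against WT liver had an adjusted p of 0.0967, Lect2 and Bmp7 in KO against WT tumours 0.0587 and 0.0559, Tmprss6 0.0615 and Cyp8b1 in KO against WT tumours 0.0566.

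Signs changed in leave-one-out fits of values that were not called: KO tumours against KO liver for Inhbc (-0.20 to 0.56) and Inhbe (-0.16 to 0.54), KO against WT liver for Inhbc (-0.47 to 0.30), Inhbe (-0.95 to 0.41) and Fst (-2.19 to 4.80), and the interaction for Fst (-6.01 to 0.98). With 2 or 3 libraries a group, transcripts of a few CPM are limited by clumped counts.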
